A study of Mus musculus with 6 samples.

Results

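Amino acid catabolism enzymes were followed as a set of 44 genes, taken by gene symbol from the 55536 genes of the count table, in orthotopic mouse hepatocellular carcinoma with and without GOx-DOX-LGP treatment. LGP is a lipid, gelatin and protamine nanogel, GOx is glucose oxidase, which turns glucose into gluconic acid and hydrogen peroxide, and DOX is doxorubicin, a DNA-damaging chemotherapeutic. The 6 tumors grew in male C3H mice (C3H/HeNCrNarl in the study's methods) of 6 to 8 weeks whose livers received 1000000 HCA-1 cells, a murine hepatocellular carcinoma line, under the capsule. The 3 control tumors (controls 5, 6 and 7) were untreated, and the 3 GOx-DOX-LGP tumors (GOx-DOX 1, 2 and 5) came from mice given the loaded particles intravenously. The labels place dosing on days 18, 19 and 20 but transcriptome analysis on day 17, 3 h after dosing, so the interval between treatment and sampling is not settled; the study's methods place the harvest of such tumors for PCR on the day after the last dose and give no such day for the sequenced tumors. The HCA-1 tumor grows inside a host liver, and the labels do not say whether liver tissue was trimmed from the samples.

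Amino acid catabolism strips the amino group from an amino acid and passes the carbon skeleton to pyruvate, acetyl-CoA or the citric acid cycle. Most of it takes place in the hepatocyte, which holds enzymes for tyrosine, histidine, methionine, threonine and glyoxylate that few other cells make. The branched-chain amino acids leucine, isoleucine and valine are the exception, because their transamination and the oxidation of the resulting keto acids are carried out by mitochondria of muscle, kidney, brain, fat and many proliferating cells as well. Accordingly, the 44 enzymes were divided by known tissue distribution into 18 liver-restricted enzymes (some also in kidney, and Dao mainly there), 13 enzymes of branched-chain amino acid and propionate oxidation, which are found in many tissues, and 13 remaining enzymes.

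The libraries held 15529940 to 18401178 counts. Levels are given as CPM (counts scaled to a common library size, here with TMM factors), on which 3 counts correspond to 0.131 to 0.322 CPM. Log2 fold changes are GOx-DOX-LGP minus control with a standard error derived from the edgeR test. It is the size of the log2 fold change divided by the square root of the quasi-likelihood F statistic. The control tumors did not resemble each other: log2 CPM correlated across genes at 0.97 between controls 6 and 7, but at 0.73 and 0.66 between control 5 and these libraries, and at 0.97 to 0.98 between control 5 and the GOx-DOX-LGP tumors. The 12 hepatocyte markers read here summed to 704 CPM in control 5, 124791 CPM in control 6 and 200011 CPM in control 7, and to 1466 to 3671 CPM in the GOx-DOX-LGP tumors. Albumin (Alb) was at 353, 73804 and 128244 CPM across controls 5, 6 and 7 and at 1893, 733 and 1061 CPM for GOx-DOX 1, 2 and 5. Transthyretin (Ttr) stood at 34.2, 5460 and 9255 CPM against 214, 54.5 and 93.3 CPM, and apolipoprotein A-I (Apoa1) at 61.1, 8866 and 14290 CPM against 348, 131 and 189 CPM, in the same order of libraries. No hepatocyte marker was at 0 in any library. The 6 cycling-cell markers were in the opposite order, at summed levels of 885, 257 and 37.6 CPM across controls 5, 6 and 7 and 620 to 779 CPM in the GOx-DOX-LGP tumors. The results below are therefore given with every library shown, and also without control 5 and without controls 6 and 7. Fewer cells of a type and less RNA per cell cannot be told apart in these bulk samples, and the part that hepatocyte content had in any difference below was not tested.

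Across the set, amino acid catabolism enzymes were high in controls 6 and 7 and low in control 5 and in all GOx-DOX-LGP tumors. The 44 enzymes together took 0.0653% of the counts of control 5 (95% Wilson interval 0.0641 to 0.0664), 1.34% of control 6 (1.33 to 1.34) and 1.64% of control 7 (1.63 to 1.64). They took 0.0951% (0.0936 to 0.0966), 0.0744% (0.0731 to 0.0758) and 0.0795% (0.0781 to 0.0809) in GOx-DOX 1, 2 and 5; these intervals cover counting error only. In 43 of the 44 enzymes controls 6 and 7 were the 2 highest libraries of the 6, an order met in 32.9% of all genes kept, and control 7 was the highest library in each of the 43. The exception was Dao (D-amino acid oxidase, mainly a kidney and brain enzyme), which was under 0.6 CPM in every library and did not pass the filter on low counts.

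**Figure D1:**
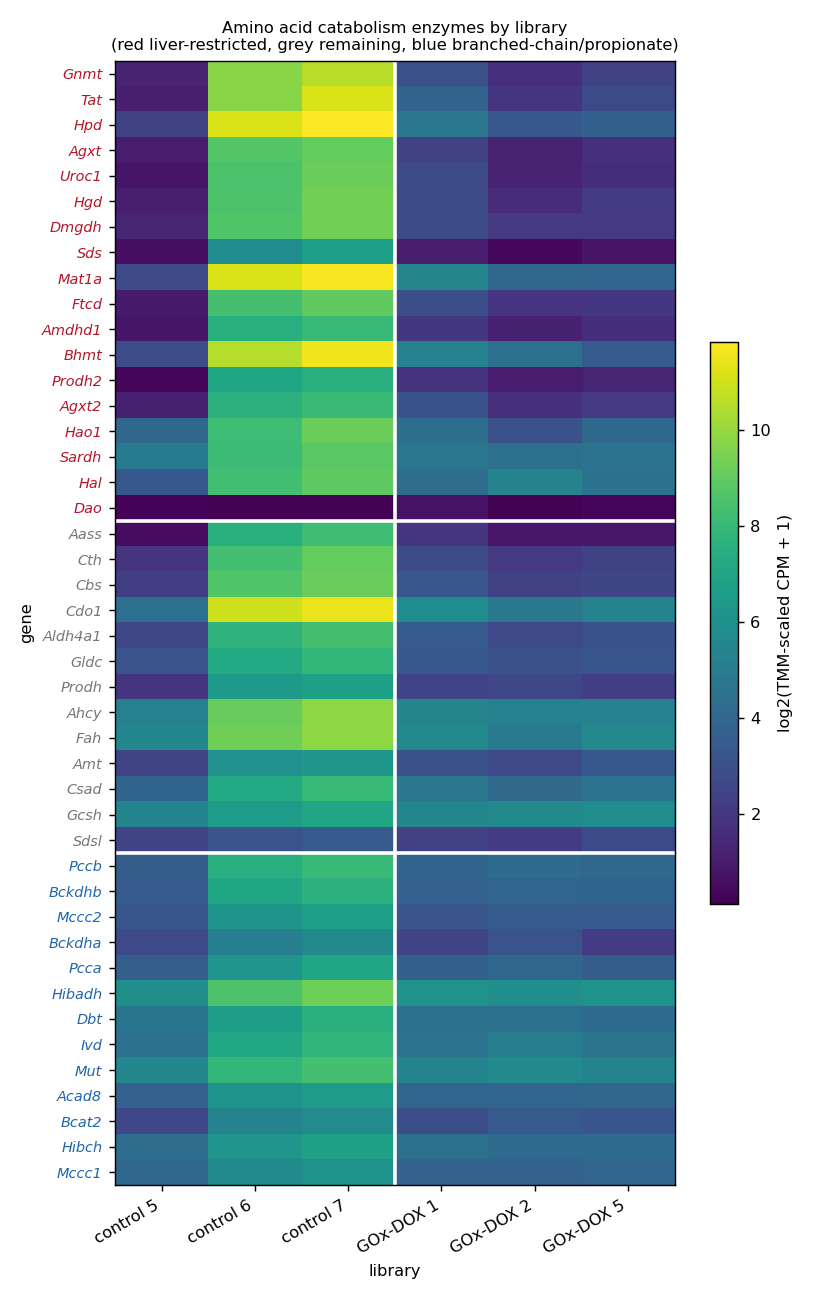
Level of each of the 44 enzymes (rows, ordered within class by fold change, with Dao last in the liver-restricted class) in each of the 6 libraries (columns), as log2 of TMM-scaled CPM plus 1; the white lines separate classes and groups. Controls 6 and 7 are the 2 brightest columns in every row but that of Dao, although Sdsl stays dim there (7.63 and 9.90 CPM), while control 5 resembles the 3 GOx-DOX-LGP tumors, and the liver-restricted rows span the widest range.

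The 43 enzymes that passed the filter were all lower in the GOx-DOX-LGP tumors on average, with a median log2 fold change of -3.90 (range -7.44 to -0.71) beside 0.02 over the 15374 genes kept. All 44 passed it in the fit without controls 6 and 7. With 3 tumors against 3 and control 5 among the low libraries, the edgeR quasi-likelihood test with Benjamini-Hochberg adjustment called 0 of the 43, at adjusted p of 0.247 to 0.362, as it called 0.0% of all genes. At an unadjusted p under 0.05, 41 of the 43 were lower and 0 higher, where 14.6% of all genes were lower. The exceptions were Gcsh and Sdsl. DESeq2 called 39 of the 43 lower at an adjusted p under 0.05, against 9.54% of all genes it tested; the 4 it did not call were Ivd, Bcat2, Gcsh and Sdsl. Groups that do not overlap were found for 3 enzymes, Sardh, Dbt and Mccc1, all lower with treatment, against 8.31% of all genes, so the share of members without overlap was no higher than that of all genes. The two-sided exact permutation test of log2 CPM gave its smallest possible p of 0.1 for these 3 enzymes and up to 0.4 for the others.

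The contrast between the classes was in size. The 17 liver-restricted enzymes that passed the filter had a median log2 fold change of -6.25 (-7.44 to -3.35), the 13 remaining enzymes -3.90 (-6.81 to -0.71), and the 13 branched-chain and propionate enzymes -2.41 (-3.25 to -1.71). DESeq2 called 17 of 17, 11 of 13 and 11 of 13 lower, respectively. Among the enzymes kept, which leave out Dao, the fold changes of the liver-restricted and the branched-chain and propionate enzymes did not overlap. The classes were set with earlier results of these data known. The smallest liver-restricted difference, -3.35 ± 1.25 for Hal, was larger in size than the largest of the other class, -3.25 ± 1.03 for Pccb. These values differ by far less than their standard errors. The order of the classes by level, per kilobase of exon, was not the same in all libraries. In control 5 the median liver-restricted enzyme was at 1.95 TPM and the median branched-chain and propionate enzyme at 13.0 TPM, whereas in controls 6 and 7 the liver-restricted enzymes were the higher class, at 219 and 248 TPM against 45.9 and 50.3 TPM. The GOx-DOX-LGP tumors had the order of control 5, at 9.998, 3.55 and 5.08 TPM for liver-restricted and 13.2, 15.2 and 13.5 TPM for branched-chain and propionate enzymes.

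**Figure D2:**
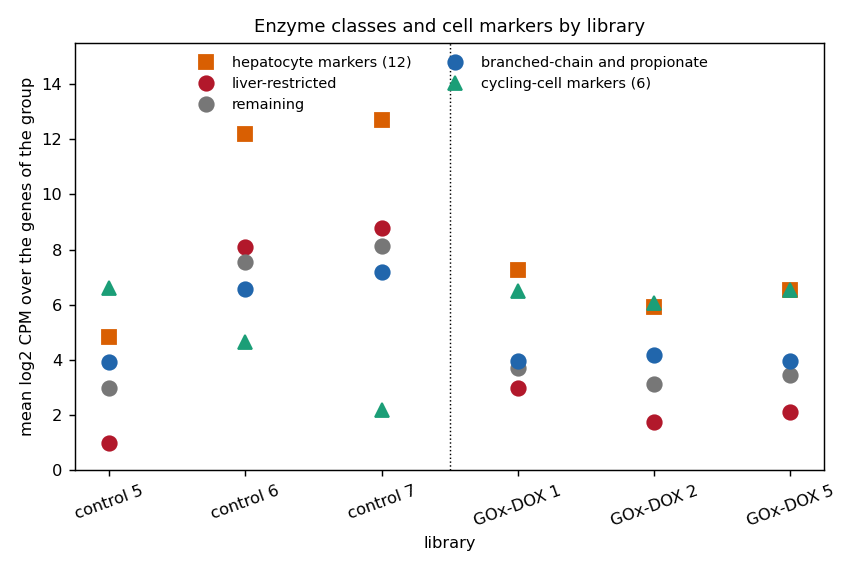
Mean log2 CPM over the genes of each enzyme class, the 12 hepatocyte markers and the 6 cycling-cell markers (y axis) in each of the 6 libraries (x axis); each point is one library and the dotted line separates control from GOx-DOX-LGP tumors. Liver-restricted enzymes move from 0.98 in control 5 to 8.77 in control 7 and branched-chain and propionate enzymes from 3.91 to 7.18, alongside hepatocyte markers at 4.83 and 12.71.

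Set against the hepatocyte markers of the same library, the classes parted. Relative to the mean hepatocyte marker, the median liver-restricted enzyme was at -4.46, -3.76 and -3.60 log2 units in controls 5, 6 and 7 and at -4.46, -4.55 and -4.72 log2 units in GOx-DOX 1, 2 and 5. The median branched-chain and propionate enzyme was at -1.12 log2 units in control 5, at -5.97 and -5.69 in controls 6 and 7, and at -3.47, -1.94 and -2.61 in the GOx-DOX-LGP tumors. The liver-restricted median thus stayed between -4.72 and -3.60 in all 6 libraries, while the branched-chain and propionate median lay between -5.97 and -1.12. The remaining enzymes had medians of -2.43 in control 5, -4.64 and -4.46 in controls 6 and 7, and -4.05, -3.40 and -3.40 in the GOx-DOX-LGP tumors. Single liver-restricted enzymes moved both ways around their median, with an interquartile range of 1.71 to 2.61 in a library: from control 5 to controls 6 and 7, Sardh went from 0.03 to -4.04 and -3.89 and Tat from -4.51 to -2.44 and -1.52. These are differences of log2 CPM within a library and are read here across libraries only.

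Left with control 5 as the only control, the direction turned for most enzymes. Of the 44 enzymes then kept, 36 were higher and 8 lower in the GOx-DOX-LGP tumors, with a median log2 fold change of 0.61. The liver-restricted median became 1.76, the remaining median 0.60 and the branched-chain and propionate median 0.18. At an unadjusted p under 0.05, 8 enzymes were higher, all of them liver-restricted, where 3.18% of all genes were higher, and no enzyme was lower; 0 were called after adjustment by the edgeR quasi-likelihood test. The 12 hepatocyte markers had a median of 1.86 in the same fit, and 12 of 12 were higher. All 3 GOx-DOX-LGP tumors were above control 5 in 28 of the 43 enzymes, an order found in 26.0% of all genes, in detail in 14 of 17 liver-restricted and 5 of 13 branched-chain and propionate enzymes. Without control 5 instead, the edgeR quasi-likelihood test called all 43 enzymes lower, against 25.5% of all genes, at adjusted p between 4.6e-05 and 0.046.

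**Figure D3:**
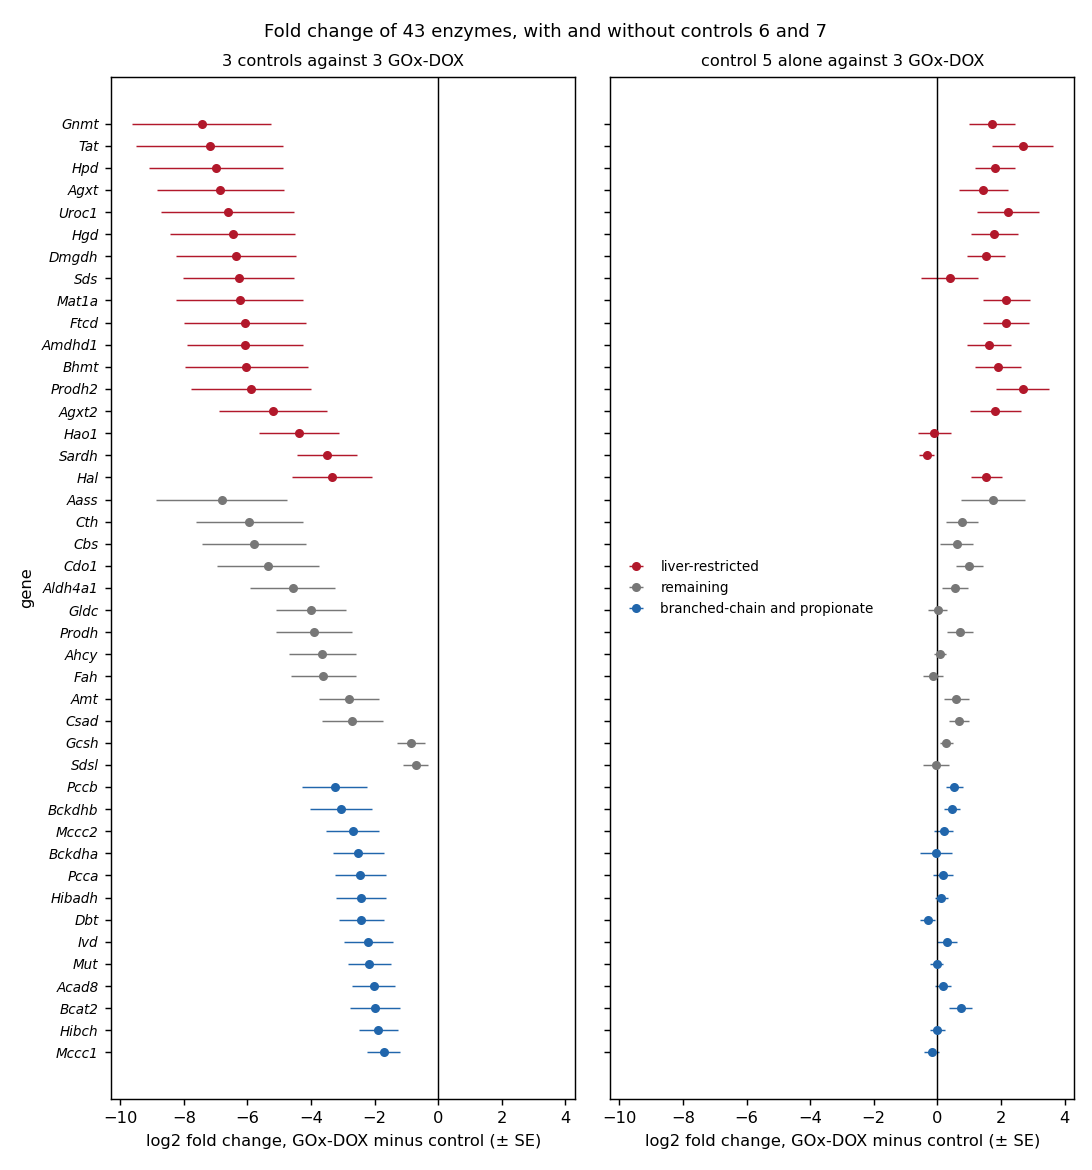
Log2 fold change of the 43 enzymes (x axis, ± standard error) with all 3 controls (left) and with control 5 as the only control (right), 1 row per gene and coloured by class. On the left every point is below 0 and the liver-restricted enzymes reach -7.44, while on the right 35 of the 43 points are above 0, up to 2.69.

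Tyrosine degradation had a median of -6.73 in log2 fold change over its 4 enzymes, the lowest of the pathways with more than 1 enzyme in the set. Tat (tyrosine aminotransferase, the entry step, induced in liver by glucocorticoids) was at 1.14, 870 and 2338 CPM across controls 5, 6 and 7 and at 13.3, 2.84 and 5.78 CPM for GOx-DOX 1, 2 and 5. All GOx-DOX-LGP tumors were above control 5 and far below the other controls, which themselves differed more than in most enzymes of the group. Its log2 fold change was -7.19 ± 2.32 (edgeR quasi-likelihood adjusted p = 0.247, DESeq2 adjusted p = 0.000778), and 2.69 without controls 6 and 7. Here and in the pathways below, no enzyme passed the edgeR quasi-likelihood test with all 6 libraries. The DESeq2 values are those of an alternative test. Hpd (hydroxyphenylpyruvate dioxygenase) and Hgd (homogentisate dioxygenase), the middle steps, had log2 fold changes of -7.00 ± 2.11 and -6.47 ± 1.97. Fah (fumarylacetoacetate hydrolase, the last step, which many cells carry) was at 47.6, 623 and 925 CPM in the controls and 49.9, 30.4 and 49.5 CPM in the GOx-DOX-LGP tumors. Here control 5 lay within the range of the GOx-DOX-LGP tumors, and the log2 fold change was -3.62 ± 1.03 (DESeq2 adjusted p = 0.00313). Fah therefore had a smaller difference than the other 3 members of the pathway, and -0.12 without controls 6 and 7. Gstz1, which acts between Hgd and Fah and is not a member of the set, was lower by -4.30 ± 1.30.

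In the methionine cycle and transsulfuration, Gnmt (glycine N-methyltransferase, which disposes of excess S-adenosylmethionine in liver) had the largest difference of all 43 enzymes. It was at 1.40, 876 and 1525 CPM across controls 5, 6 and 7 and at 7.17, 2.30 and 4.37 CPM for GOx-DOX 1, 2 and 5. Its log2 fold change was -7.44 ± 2.19 (edgeR quasi-likelihood adjusted p = 0.247, DESeq2 adjusted p = 0.00053). Control 5 was the lowest of the 6 libraries, and without controls 6 and 7 the difference was 1.73 ± 0.73. Mat1a (the liver form of methionine adenosyltransferase, which makes S-adenosylmethionine) and Bhmt (betaine-homocysteine methyltransferase, which remakes methionine) were lower by -6.25 ± 2.01 and -6.03 ± 1.94. Cth and Cbs, which carry homocysteine to cysteine, were lower by -5.94 ± 1.68 and -5.80 ± 1.63. Ahcy (adenosylhomocysteinase, found in nearly all cells) had the smallest difference of the group, -3.65 ± 1.05, from 38.0, 558 and 910 CPM in the controls and 42.8, 38.0 and 39.3 CPM in the GOx-DOX-LGP tumors. Control 5 and the GOx-DOX-LGP tumors were thus nearly level for Ahcy. Of the exon sequence of Ahcy, 68.7% of 50-base stretches recur in other annotated genes, such as Gm4737. Of that of Bhmt 25.3% do, in genes that include Bhmt2, so the counts of both depend on how shared reads were assigned.

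Cysteine oxidation to taurine starts with Cdo1 (cysteine dioxygenase), which per kilobase of exon was the most abundant of the 44 enzymes in controls 6 and 7, at 2338 and 2308 TPM (a level per length, scaled to a common total). In CPM it was at 20.3, 2070 and 2874 in controls 5, 6 and 7 and at 56.2, 26.4 and 38.4 in GOx-DOX 1, 2 and 5. Its log2 fold change was -5.36 ± 1.61 (edgeR quasi-likelihood adjusted p = 0.247, DESeq2 adjusted p = 0.00119). Csad (cysteine sulfinate decarboxylase, the following step) was at 14.04, 157 and 260 CPM against 26.2, 17.1 and 23.0 CPM, a log2 fold change of -2.70 ± 0.95 (DESeq2 adjusted p = 0.0374). For both genes the GOx-DOX-LGP tumors were all above control 5 and below controls 6 and 7. Csad overlaps Zfp740 on the opposite strand, and whether the counting used strand is not given in the sources used here.

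Serine and threonine deamination gave a sharp contrast between close relatives. Sds (serine dehydratase, which feeds serine carbon to pyruvate for gluconeogenesis in liver) was at 0.526, 54.9 and 106 CPM across controls 5, 6 and 7. For GOx-DOX 1, 2 and 5 it was at 1.09, 0.294 and 0.676 CPM. Its log2 fold change was -6.28 ± 1.75 (edgeR quasi-likelihood adjusted p = 0.247, DESeq2 adjusted p = 0.000729). Sdsl (serine dehydratase-like, its paralog) was at 4.69, 7.63 and 9.90 CPM against 4.25, 3.58 and 5.67 CPM, a log2 fold change of -0.71 ± 0.38 that neither test called (DESeq2 adjusted p = 0.296). For Sdsl the controls overlapped the GOx-DOX-LGP tumors at control 5, and the difference was -0.05 with the counts scaled to library totals. The genes are neighbours on chromosome 5 of GRCm38, Sds at chr5:120476526-120483932 on the plus strand and Sdsl at chr5:120458186-120472810 on the minus strand, with start sites 3.7 kb apart and facing away from each other. Per length, Sds was the higher of the pair in controls 6 and 7 (60.1 and 82.8 TPM against 9.47 and 8.73) and Sdsl in control 5 and all GOx-DOX-LGP tumors (12.9, 10.8, 8.95 and 13.95 TPM against 1.28, 2.45, 0.65 and 1.47). Sds overlaps Plbd2 and Gm15690 on the opposite strand.

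**Figure D4:**
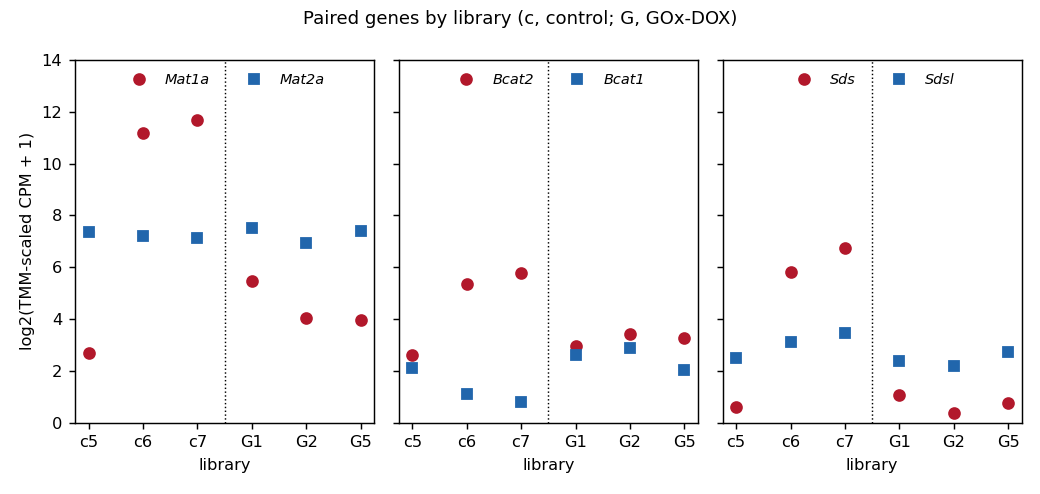
Log2 of TMM-scaled CPM plus 1 (y axis) in each library (x axis: c5 to c7 are controls, G1, G2 and G5 are GOx-DOX-LGP tumors) for Mat1a and Mat2a, Bcat2 and Bcat1, and Sds and Sdsl; each point is one library. The red gene of each pair is high in controls 6 and 7, while of the blue genes Mat2a stays between 123 and 180 CPM, Sdsl between 3.58 and 9.90 CPM, and Bcat1 is lowest in control 7.

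Histidine degradation was represented by 4 enzymes, all liver-restricted. Uroc1 (urocanate hydratase, the middle step) was at 0.702, 367 and 587 CPM across controls 5, 6 and 7. For GOx-DOX 1, 2 and 5 it was at 6.08, 1.47 and 2.13 CPM. Its log2 fold change was -6.62 ± 2.09 (edgeR quasi-likelihood adjusted p = 0.247, DESeq2 adjusted p = 0.00102). Ftcd (formimidoyltransferase cyclodeaminase) and Amdhd1 (imidazolonepropionase) were lower by -6.08 ± 1.91 and -6.07 ± 1.82. Hal (histidine ammonia-lyase, the entry step, also active in skin) was at 9.21, 311 and 491 CPM against 19.1, 39.6 and 21.2 CPM, a log2 fold change of -3.35 ± 1.25 (DESeq2 adjusted p = 0.0304). Among the 17 liver-restricted enzymes kept, Hal was the single gene for which GOx-DOX 1 was not the highest of the GOx-DOX-LGP tumors: GOx-DOX 1 was highest in 16 of 17, against 25.1% of all genes, and it also had the highest hepatocyte marker sum of the treated tumors (3671 CPM against 1466 and 2094). Hal and Amdhd1 are neighbours on chromosome 10, 4033 bases apart with their ends facing.

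In proline oxidation, Prodh2 (hydroxyproline dehydrogenase, of liver and kidney) was at 0.263, 127 and 176 CPM across controls 5, 6 and 7. For GOx-DOX 1, 2 and 5 it was at 2.52, 1.08 and 1.51 CPM. Its log2 fold change was -5.89 ± 1.89 (edgeR quasi-likelihood adjusted p = 0.247, DESeq2 adjusted p = 0.00169). Prodh (proline dehydrogenase, of many tissues) was at 2.76, 86.7 and 112 CPM against 4.50, 5.05 and 3.90 CPM, a log2 fold change of -3.90 ± 1.19 (DESeq2 adjusted p = 0.00524). In both, control 5 was the lowest library. Aldh4a1, which acts later in both routes and forms glutamate in that of proline, was lower by -4.58 ± 1.34. Of its 50-base stretches, 30.03% are shared with the overlapping gene Gm21969.

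For glyoxylate, Agxt (alanine-glyoxylate aminotransferase, the enzyme whose loss causes primary hyperoxaluria) was at 1.01, 416 and 536 CPM across controls 5, 6 and 7. For GOx-DOX 1, 2 and 5 it was at 4.45, 1.42 and 2.34 CPM. Its log2 fold change was -6.85 ± 2.002 (edgeR quasi-likelihood adjusted p = 0.247, DESeq2 adjusted p = 0.000727). Hao1 (glycolate oxidase, which makes glyoxylate and hydrogen peroxide) was at 15.3, 292 and 574 CPM against 19.4, 7.10 and 15.7 CPM, a log2 fold change of -4.38 ± 1.25 (DESeq2 adjusted p = 0.00184). Control 5 lay within the range of the GOx-DOX-LGP tumors for Hao1 and under all of them for Agxt. Agxt2, the mitochondrial relative, was lower by -5.20 ± 1.70. Dao was at 0.175, 0.0848 and 0.108 CPM in the controls and 0.593, 0.147 and 0.208 CPM in the GOx-DOX-LGP tumors, which is 1 to 4 counts in 5 libraries and 12 counts in GOx-DOX 1, and the groups overlapped. Controls 6 and 7 were its lowest libraries, so the name of the liver-restricted class goes against this member. In the fit without controls 6 and 7, the only one of the leave-out fits that kept it, the log2 fold change was 0.85 ± 1.21.

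Among the enzymes of glycine and its methyl groups, Dmgdh and Sardh, the mitochondrial dehydrogenases that demethylate dimethylglycine and sarcosine, behaved differently in control 5. Dmgdh was at 1.49, 403 and 642 CPM across controls 5, 6 and 7 and at 6.28, 3.23 and 3.23 CPM for GOx-DOX 1, 2 and 5. Its log2 fold change was -6.36 ± 1.88 (edgeR quasi-likelihood adjusted p = 0.247, DESeq2 adjusted p = 0.000729). Sardh was at 29.0, 287 and 453 CPM against 25.01, 20.2 and 22.7 CPM, a log2 fold change of -3.50 ± 0.93 (DESeq2 adjusted p = 0.00231). Every GOx-DOX-LGP tumor was below every control for Sardh, although control 5 exceeded GOx-DOX 1 by little, and the difference was -0.34 ± 0.23 without controls 6 and 7. Of the glycine cleavage system, Gldc (the P protein that decarboxylates glycine) and Amt (the T protein) were lower by -3.99 ± 1.10 and -2.81 ± 0.95. Gcsh (the H protein, which carries the intermediate and also donates lipoic acid) was at 41.4, 97.4 and 133 CPM against 43.8, 49.8 and 56.1 CPM, a log2 fold change of -0.86 ± 0.43 that was not called (DESeq2 adjusted p = 0.283). Per kilobase of exon, Gcsh was at 106 to 131 TPM in every library, a narrower range than that of its partner Gldc, at 4.37 to 50.5 TPM. TPM carries no TMM factor here, and in TMM-scaled CPM the level of Gcsh ran from 41.4 to 133 across libraries. It was the most abundant of the 44 enzymes per length in control 5 (108 TPM) and in GOx-DOX 2 and 5 (118 and 131 TPM), where Cdo1 held that place in the other libraries.

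Lysine degradation was represented by its entry enzyme Aass (aminoadipate semialdehyde synthase), which was at 0.439, 189 and 306 CPM across controls 5, 6 and 7 and at 2.77, 0.784 and 0.832 CPM for GOx-DOX 1, 2 and 5. Its log2 fold change was -6.81 ± 2.06 (edgeR quasi-likelihood adjusted p = 0.247, DESeq2 adjusted p = 0.000729). This was the largest of the 13 enzymes outside both named classes and lay within the range of the liver-restricted ones.

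Branched-chain amino acid oxidation was lower throughout, with a narrow range of -3.06 to -1.71 over 10 enzymes. Bckdhb (the E1 beta subunit of the branched-chain keto acid dehydrogenase, the committed step) had the largest difference, -3.06 ± 0.97 (edgeR quasi-likelihood adjusted p = 0.247, DESeq2 adjusted p = 0.0144). It was at 10.0, 134 and 200.5 CPM across controls 5, 6 and 7 and at 13.1, 14.4 and 13.8 CPM for GOx-DOX 1, 2 and 5. Control 5 was the lowest library. The other subunits of the same complex, Bckdha (E1 alpha) and Dbt (E2), were lower by -2.51 ± 0.81 and -2.41 ± 0.69. Dbt was at 24.7, 104 and 188 CPM against 21.1, 20.8 and 17.4 CPM (DESeq2 adjusted p = 0.0135), and every GOx-DOX-LGP tumor was below every control. Without controls 6 and 7 the values were -0.31 ± 0.24 for Dbt, 0.47 ± 0.26 for Bckdhb and -0.03 ± 0.50 for Bckdha, none of which was called (edgeR quasi-likelihood adjusted p = 0.899, 0.885 and 0.993).

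Mccc1 (the biotin-carrying subunit of methylcrotonyl-CoA carboxylase, of leucine breakdown) had the smallest difference of the group. It was at 15.4, 50.4 and 66.5 CPM across controls 5, 6 and 7 and at 12.8, 13.0 and 14.6 CPM for GOx-DOX 1, 2 and 5. Its log2 fold change was -1.71 ± 0.52 (edgeR quasi-likelihood adjusted p = 0.247, DESeq2 adjusted p = 0.0398). Its groups did not overlap, although control 5 and GOx-DOX 5 were close. Mccc2, the partner subunit, was lower by -2.69 ± 0.84, and Ivd (isovaleryl-CoA dehydrogenase, the step before) by -2.20 ± 0.77. Of the valine steps, Hibadh, Acad8 and Hibch were lower by -2.44 ± 0.79, -2.03 ± 0.68 and -1.89 ± 0.62. Bcat2 (the mitochondrial branched-chain aminotransferase, the entry step, low in liver) was at 5.09, 40.3 and 54.2 CPM against 6.72, 9.75 and 8.64 CPM, for -1.98 ± 0.79, and was not called by DESeq2 (adjusted p = 0.0992). It had the largest difference of the 13 genes without controls 6 and 7, 0.73 ± 0.35.

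Propionyl-CoA, the product of valine, isoleucine, methionine and threonine breakdown, is carboxylated by Pcca and Pccb and rearranged to succinyl-CoA by Mut (methylmalonyl-CoA mutase). Pccb was at 11.1, 181 and 261 CPM across controls 5, 6 and 7 and at 13.8, 17.7 and 15.9 CPM for GOx-DOX 1, 2 and 5. Its log2 fold change was -3.25 ± 1.03 (edgeR quasi-likelihood adjusted p = 0.247, DESeq2 adjusted p = 0.0115), and all GOx-DOX-LGP tumors exceeded control 5. Mut was at 45.5, 234 and 319 CPM against 41.7, 49.2 and 42.0 CPM, a log2 fold change of -2.17 ± 0.68 (DESeq2 adjusted p = 0.0273), with control 5 within the range of the GOx-DOX-LGP tumors. Pcca was lower by -2.45 ± 0.80. Opposite-strand genes overlap Bckdha (B3gnt8), Bcat2 (0610005C13Rik), Pcca (Ggact), Mut (Cenpq) and Mccc1 (Mccc1os among others). Of the other pathways, Sardh (Sardhos), Dmgdh (AW495222) and Bhmt (Gm15622) also have such overlaps. On the same strand, Gm24355 overlaps Hibadh and Gm21973 overlaps Agxt2.

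The promoters of the set were compared as sequence, since the rule that chose the enzymes did not use it. RefSeq promoter windows of GRCm38.p6 were found for 37 of the 44 enzymes, and the 250 bases before the start site were read. The promoters below are those of the most lowered liver-restricted enzyme (Gnmt), the most lowered histidine enzyme (Uroc1) and the branched-chain enzyme with the smallest difference (Mccc1), each written 5′ to 3′ on the strand of its gene, with CpG dinucleotides in capitals.
Gnmt, chr17:46729166-46729415, minus strand: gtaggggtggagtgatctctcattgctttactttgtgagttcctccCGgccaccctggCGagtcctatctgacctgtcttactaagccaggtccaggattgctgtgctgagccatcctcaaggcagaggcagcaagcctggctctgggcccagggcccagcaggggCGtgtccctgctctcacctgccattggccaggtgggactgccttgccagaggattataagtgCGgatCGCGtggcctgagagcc
Uroc1, chr6:90333039-90333288, plus strand: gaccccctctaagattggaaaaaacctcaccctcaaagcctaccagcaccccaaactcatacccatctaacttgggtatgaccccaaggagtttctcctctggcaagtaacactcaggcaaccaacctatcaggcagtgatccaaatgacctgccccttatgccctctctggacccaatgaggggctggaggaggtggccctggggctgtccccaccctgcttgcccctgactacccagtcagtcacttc
Mccc1, chr3:36000679-36000928, minus strand: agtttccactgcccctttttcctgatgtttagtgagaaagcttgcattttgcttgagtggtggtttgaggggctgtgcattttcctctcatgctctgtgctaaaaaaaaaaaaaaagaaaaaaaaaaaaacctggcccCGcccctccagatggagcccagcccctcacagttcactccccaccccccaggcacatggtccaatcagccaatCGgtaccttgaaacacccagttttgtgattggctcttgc
The Gnmt window held 6 CpG, the Uroc1 window 0 and the Mccc1 window 2, so the small difference of Mccc1 did not go with a CpG-rich window.

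Over the matched genes, the windows of 16 liver-restricted enzymes held a median of 3.5 CpG (0 to 16), those of 11 branched-chain and propionate enzymes 15 (2 to 20) and those of 10 remaining enzymes 9.5 (3 to 21), beside 6 over all 27018 promoters. At least 10 CpG were present in 1 of 16, 6 of 11 and 5 of 10 windows, respectively, and in 38.2% of all promoters. The liver-restricted window with 16 CpG was that of Dmgdh, which had one of the larger differences (-6.36), and Cbs, with 21, had -5.80. Among short motifs searched on both strands, TATAAA (the TATA box) was present in 4 of 16 liver-restricted windows, those of Hgd, Hal, Ftcd and Agxt2, in 0 of 21 others and in 13.0% of all promoters. CCAAT was present in 7 of 16 liver-restricted, 7 of 11 branched-chain and propionate and 8 of 10 remaining windows, and in 34.5% of all promoters; GGGCGG (the GC box) was present in 4, 5 and 6 windows of these classes and in 32.9% of all promoters. The HNF4 motif CAAAGTCCA, of a liver transcription factor, was found in 1 window, that of Agxt2 (0.381% of all promoters), and the FOXA motif TGTTTAC in that of Hibadh (3.09% of all promoters). These matches are descriptions of the letters in a window.

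**Figure D5:**
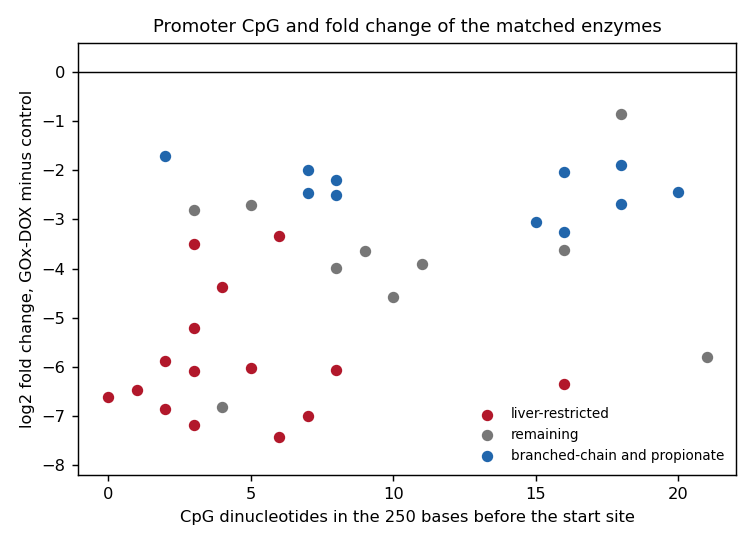
CpG dinucleotides in the 250 bases before the start site (x axis) and log2 fold change (y axis) of the 36 enzymes that have both, each point a gene, coloured by class. Liver-restricted enzymes lie at 0 to 8 CpG except Dmgdh at 16, and branched-chain and propionate enzymes lie between -3.25 and -1.71 on the fold change axis at both low and high CpG.

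A further 61 genes of amino acid catabolism outside the set were read from the same fit. Of the 60 kept, 48 were lower and 12 higher with a median log2 fold change of -1.87; 38 were lower and 0 higher at an unadjusted p under 0.05, beside 14.6% of all genes lower, and DESeq2 called 30 lower and 0 higher, beside 9.54% of all genes lower. Tdh (threonine dehydrogenase) had no count in any library. Among the largest negative differences were those of Aadat (aminoadipate aminotransferase, a later lysine step than Aass) and Pipox. Their log2 fold changes were -6.89 ± 2.06 and -6.19 ± 1.84. Aadat was at 0.219, 93.7 and 199 CPM across controls 5, 6 and 7 and at 1.33, 0.392 and 0.728 CPM for GOx-DOX 1, 2 and 5. Pipox (sarcosine and pipecolate oxidase) was at 1.32, 294 and 473 CPM against 5.44, 2.06 and 3.02 CPM. Both had the library order of the liver-restricted enzymes.

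The largest positive differences outside the set were those of Bcat1, Phgdh and Psat1, none of which was called by the edgeR quasi-likelihood test or DESeq2 (adjusted p of 0.297 to 0.571 and 0.146 to 0.513). Without control 5, edgeR called all 3 higher, at 2.33, 2.90 and 3.17 on the log2 scale (quasi-likelihood adjusted p = 0.00744, 0.0102 and 0.00375). In that fit 3601 of the 16249 genes kept were called higher, and 9 of the 60 further genes kept. Bcat1, the cytosolic branched-chain aminotransferase, was at 3.29, 1.19 and 0.753 CPM across controls 5, 6 and 7 and at 5.14, 6.32 and 3.12 CPM for GOx-DOX 1, 2 and 5, a log2 fold change of 1.44 ± 0.62. Phgdh, the entry enzyme of serine synthesis, was at 101, 22.6 and 3.98 CPM against 98.4, 73.5 and 125 CPM, a log2 fold change of 1.21 ± 1.02. Psat1, the next enzyme of serine synthesis, was at 140, 21.0 and 5.60 CPM against 131, 81.2 and 143 CPM, a log2 fold change of 1.09 ± 1.07. All 3 genes were lowest in control 7 and next lowest in control 6, and without controls 6 and 7 their log2 fold changes were 0.58, -0.02 and -0.23. Mat2a, the form of methionine adenosyltransferase found outside liver, was at 162, 148 and 140 CPM against 180, 123 and 167 CPM, a log2 fold change of 0.06 ± 0.24 beside the -6.25 ± 2.01 of Mat1a.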

How the data were processed

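Tumor RNA of 3 control and 3 GOx-DOX-LGP samples was sequenced as mRNA libraries. The labels do not say that each sample is a separate mouse, so p-values measure the spread between these samples. The authors deposited raw read counts per gene and a table of size-factor-normalized counts (a signal, which equals the deposited counts divided by 1 constant per library and was used here only for gene symbols). The submitters' processing notes list Trimmomatic 0.38, HISAT2 2.1.0 and featureCounts 2.0.0, whereas the study's methods name another aligner and counter; the genome build, annotation and use of strand are not given in the sources used here. All 55536 gene identifiers were found in GENCODE M21 (GRCm38), which gave positions, exon lengths and shared 50-base stretches. The symbol Mut stands for Mmut and Tf is listed as Trf.

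Counts as deposited were fitted with edgeR 4.0.16 (R 4.3.3), using TMM scaling, filterByExpr at its defaults (15374 genes kept), the quasi-likelihood test and Benjamini-Hochberg adjustment over all genes kept at 0.05. DESeq2 1.42.0 (14385 genes with an adjusted p) and limma 3.58.1 (voom with sample quality weights) were alternatives, with 4 other scalings, 2 other filters and libraries left out. TPM was computed from counts and exon lengths, and shares of counts carry 95% Wilson intervals, which cover counting error only. Single values were compared by two-sided exact permutation, for which 3 against 3 cannot go below 0.1. Scripts were tested on simulated data.

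The 44 members, the classes and the lists of 61 further genes, cell type markers and housekeeping genes were chosen with earlier results of these data known. All members are named with their log2 fold change; library values are given for the largest and smallest difference in each pathway, for members whose groups do not overlap, for the 3 largest positive and negative differences of the further genes, and for Alb, Ttr and Apoa1. Promoters followed the same rule, and 7 members had none in the table. Mat2a, shown as an isoenzyme partner, was chosen after its values were seen. Some further genes that the rule names are not reported here.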

Additional observations from a re-analysis of the deposited data

How the results depend on the processing

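No paired analysis was possible because the groups compared share only the number 5. The count of genes past the threshold, 0 by the edgeR quasi-likelihood test, was 1516 by DESeq2, 1098 by the edgeR exact test and 9254 by limma voom with sample quality weights, and 0 to 7745 when 1 library was left out, the 7745 without control 5. Members past the threshold numbered 39, 31 and 43 by these tests and 0 to 43 with 1 library left out (43 without control 5, 0 without any other library). Of the further catabolism genes, 30, 24 and 54 passed by these tests and 0 to 53 with 1 library left out (53 without control 5). The cause of these differences between tests was not tested. With 1 library left out, the medians of log2 fold change went from -6.80 to -5.35 for liver-restricted, -2.85 to -1.70 for branched-chain and propionate and -4.43 to -3.31 for remaining members. Under the 4 scalings, both filters and the 6 fits without 1 library, all 43 members stayed lower. Scaling by library totals raised the median of all genes by 0.49, and the medians of the liver-restricted, branched-chain and propionate, and remaining enzymes were then -5.32, -1.57 and -3.00. Scaling by upper quartiles raised the median of all genes by 0.17, and the same medians were -5.98, -2.16 and -3.64. Sdsl was at -0.05 by library totals, under the 0.51 of the median gene there.

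Without controls 6 and 7 together the medians turned to 1.76, 0.18 and 0.60 for the liver-restricted, branched-chain and propionate, and remaining members, and 35 members changed sign. These were Tat 2.69, Prodh2 2.68, Uroc1 2.21, Mat1a 2.17, Ftcd 2.16, Bhmt 1.90, Agxt2 1.82, Hpd 1.82, Hgd 1.79, Gnmt 1.73, Amdhd1 1.63, Hal 1.54, Dmgdh 1.52, Agxt 1.45 and Sds 0.39 of the liver-restricted members. Of the remaining members they were Aass 1.74, Cdo1 1.01, Cth 0.79, Prodh 0.71, Csad 0.67, Cbs 0.61, Amt 0.60, Aldh4a1 0.57, Gcsh 0.28, Ahcy 0.088 and Gldc 0.010. Of the branched-chain and propionate members they were Bcat2 0.73, Pccb 0.53, Bckdhb 0.47, Ivd 0.31, Mccc2 0.20, Acad8 0.18, Pcca 0.18, Hibadh 0.12 and Hibch 0.0029. This fit has a lone control, assumed to vary like the treated tumors, and called 0 members by the edgeR quasi-likelihood test, 8 at an unadjusted p under 0.05. At 3 tumors a group with 1 control apart from the others, treatment and the make-up of the control tumors cannot be told apart.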

Other observations

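Regulators of the branched-chain keto acid dehydrogenase stood in opposite orders. Bckdk, the kinase that switches the complex off, was at 44, 29.8 and 24.8 CPM across controls 5, 6 and 7 and at 48.1, 45.2 and 49.0 CPM for GOx-DOX 1, 2 and 5, with groups that do not overlap and a log2 fold change of 0.53 ± 0.26 that was not called (edgeR quasi-likelihood adjusted p = 0.339, DESeq2 adjusted p = 0.269). Ppm1k, the phosphatase that switches it on, was at 7.46, 121 and 143 CPM against 8.45, 11.2 and 7.49 CPM, a log2 fold change of -3.32 ± 1.00 (edgeR quasi-likelihood adjusted p = 0.247, DESeq2 adjusted p = 0.00784). Both genes were picked out after their values were seen. Without controls 6 and 7 their log2 fold changes were 0.12 ± 0.19 and 0.29 ± 0.35.

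Of the cell type markers read beside the enzymes, the 6 periportal and 6 pericentral hepatocyte markers had median log2 fold changes of -6.02 and -4.79, and 1.87 and 1.28 without controls 6 and 7. The 5 T cell markers had a median of 1.44, and 1.01 without controls 6 and 7, and the groups did not overlap in 5 of 5, where 8.87% of all genes were higher without overlap. The 4 endothelial markers had medians of -1.50 and -0.39 in these fits, and the groups did not overlap in 4 of 4, where 8.31% of all genes were lower without overlap. Cycling-cell markers had a median of 0.99, which was -0.18 without controls 6 and 7 and 2.5 without control 5. Macrophage markers were at 0.96, 0.61 and 1.23, and biliary markers at 0.50, -0.04 and 0.62 in the same order. Fibroblast and stellate markers, of which 3 were lower and 3 higher (-3.80 to 0.79), had medians of 0.33, -0.32 and 1.07. The 12 housekeeping genes, of which 5 were lower and 7 higher (-1.70 to 0.87), had medians of 0.26, 0.25 and 0.30. Groups also did not overlap in 5 housekeeping genes and 2 macrophage markers, higher with treatment, and in 1 housekeeping gene, lower. In the other marker lists the groups overlapped for every gene.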
